A study of Homo sapiens with 6 samples.

Results

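Annexins are proteins that bind acidic phospholipids such as phosphatidylserine when calcium is present. Each is built of a conserved core of repeats, which holds the calcium sites, and an N-terminal part that differs between members and carries the sites for partners such as S100 proteins. In epithelial and tumour cells they are known for sealing wounded plasma membrane and for work in endocytosis, exocytosis and the cortical actin layer. A set of 10 annexin genes is described here, ANXA1 to ANXA7, ANXA9, ANXA10 and ANXA11, out of 40205 genes listed by symbol. The set was selected on the measured values of the same comparison, in which ANXA3 was already known to be lower after exposure, so the differences between groups are given for its members as descriptions. No p-value is given for any member, and counts of members past a threshold are printed without being read as evidence. Of the 10 genes, 8 had enough reads to enter the fit of 15047 genes, and ANXA9 and ANXA10 did not.

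RNA was sequenced from cells labelled HepG2, a line from a human liver cancer. The 3 control samples (Control-1 to Control-3) carry no agent in their labels. The other 3 samples (CLs-1 to CLs-3) received CLs, cationic liposomes made of the charged lipid DOTAP, cholesterol and PEGylated DSPE, at 120 μM for 24 h by the labels. The text of the study gives the same figure in μM in its cell cycle methods and in μg/ml elsewhere, so the unit of the dose is uncertain. Both groups come from the same line, and the labels do not say whether the samples of a group were separate cultures. The comparison asks which genes change their RNA level in cells exposed to CLs.

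The samples held between 11418527 and 13998946 reads on genes, and 3 reads, taken as the floor of what this depth can show, correspond to between 0.208 and 0.263 CPM, the counts relative to the scaled library total. Of 15 liver cell markers, 0 had enough reads to be tested. Their summed level was between 0.434 and 1.64 CPM in the control samples, 11.42 CPM in CLs-1 and at most 0.346 CPM in the other CLs samples. The defining markers APOH and TTR were at 0 reads in every sample, and ALB was at 0 in every sample but CLs-1, which had 8. The labelled liver origin is thus not borne out by these markers. Of 5 epithelial markers, 2 were tested, and the summed level of the list was 3175 to 4782 CPM in the control samples and 1420 to 1961 CPM in the CLs samples. Nearly all of it came from the keratins KRT8 and KRT18, whereas EPCAM had at most 7 reads, CDH1 at most 9 and KRT19 at most 61 in a sample. CLs-1 stands apart from the other libraries. Its 5 erythroid markers summed to 33.0 CPM, against at most 0.347 in any other sample, and its 7 steroidogenic markers to 33.4 CPM, against at most 2.76. The fibroblast marker COL1A2 had 1044 reads there and no more than 2 in each other library, and THY1 had 58 and no more than 1. The summed level of the 7 fibroblast markers did not set CLs-1 apart, at 939.6 CPM against 730 to 1098 CPM in the control samples. Most of it came from COL3A1, at 671.3 CPM in CLs-1 and 647.5 to 974 CPM in the control samples. Whether these markers or CLs-1 play a part in the annexin results was not tested, and each annexin is also given without that library.

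Calcium sites lie in the conserved core of annexins. A stretch of coding sequence around the first calcium motif is shown for the 6 members whose levels the results turn on most. The stretches come from the longest coding transcript of each gene in GENCODE release 29, read 5′ to 3′ on the coding strand, and all lie in coding exons. Capitals mark the 15 bases that encode the motif glycine, any residue, glycine, threonine and an acidic residue.
ANXA1: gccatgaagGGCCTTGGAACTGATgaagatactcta
ANXA2: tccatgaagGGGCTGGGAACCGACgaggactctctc
ANXA3: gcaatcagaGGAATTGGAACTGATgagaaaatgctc
ANXA5: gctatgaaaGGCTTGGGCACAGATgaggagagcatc
ANXA7: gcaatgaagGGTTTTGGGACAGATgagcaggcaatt
ANXA11: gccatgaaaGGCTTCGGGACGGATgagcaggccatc
The capitals differ in bases between all 6 genes, while the motif they encode is shared by construction. A motif of this kind was found in 9 of the 10 members and not in ANXA9. It occurred 4 times in ANXA6, which carries an extra copy of the annexin core, 3 times in ANXA4 and 2 times each in ANXA3, ANXA5, ANXA7 and ANXA11. It occurred 1 time in ANXA1, ANXA2 and ANXA10. A count of exact letters is a description of the sequence and not of how many calcium ions are bound. Translated proteins of ANXA3 and the other members were identical at 36.8% of aligned residues for ANXA9, the most distant, and at 53.3% for ANXA4, the nearest. The nearest pair of all was ANXA7 and ANXA11 at 58.7%, both of which have a long N-terminal part. The proteins were 323 residues long for ANXA3, 673 for ANXA6 and 505 for ANXA11.

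ANXA3 is an annexin with a short N-terminal part, known from the granules and phagosomes of neutrophils. It was counted 1214, 1068 and 952 times in the control samples, in the order of their numbers (an order used throughout), and 783, 507 and 438 times in the CLs samples. Every CLs sample lay below every control sample, although CLs-1 was sequenced deeper than the others. Scaled to CPM, the level was 93.1 ± 11.9 in the control group and 45.5 ± 8.05 in the CLs group (SD, n = 3 each). The log2 fold change of CLs against control was -1.03 (standard error 0.16, 95% confidence interval -1.39 to -0.67), which is a fold of 0.489. In a bulk sample, fewer cells that express a gene and less of its RNA in each cell cannot be told apart. The spread between samples was 12.8% of the mean in the control group and 17.7% in the CLs group, whereas counting alone would give 3.05% and 4.17%. ANXA3 was the lowest of the members in log2 fold change and stood at place 32 from the bottom among 9896 genes with a mean above 10 CPM. ANXA11 stood at place 163. Since the set was selected with the difference of ANXA3 known, its place and interval are descriptions and no further evidence. Without CLs-1 the log2 fold change was -1.18, and without CLs-3 it was -0.92.

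ANXA11 has a long N-terminal part that binds the calcium sensors PDCD6 and S100A6, and it is known for tying RNA granules to lysosomes. Its counts were 2805, 3254 and 4264 in the control samples and 2218, 2695 and 2512 in the CLs samples. All CLs samples were below all control samples, with a narrow gap between Control-1 and CLs-2 on the CPM scale, 243.6 against 232.9. The level was 296.7 ± 62.5 CPM in the control group and 202.2 ± 42.6 CPM in the CLs group (SD, n = 3 each), a log2 fold change of -0.55 (standard error 0.19, interval -0.98 to -0.13). CLs-1 was the lowest sample, and without it the log2 fold change was -0.39. Without Control-3, the highest sample, it was -0.38.

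ANXA1 is the annexin known as a mediator of glucocorticoid action and as a ligand of formyl peptide receptors. It was counted 2630, 2318 and 1950 times in the control samples and 3574, 2915 and 2740 times in the CLs samples. On the CPM scale the control samples were at 228.4, 200.2 and 167.2 and the CLs samples at 247.4, 251.9 and 240.1, so the groups did not overlap and the CLs samples were higher. The group levels were 198.6 ± 30.6 and 246.5 ± 6.00 CPM (SD, n = 3 each), a log2 fold change of 0.31 (standard error 0.14, interval -0.0011 to 0.62). Leaving out Control-3, the lowest sample, brought it to 0.20, and leaving out CLs-1 left it at 0.31.

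ANXA7, known as synexin and for its part in the fusion of secretory granules, had 1643, 1566 and 1412 counts in the control samples and 2127, 1819 and 1746 counts in the CLs samples. The CLs samples were again all higher on the CPM scale, by a small margin, since the highest control sample was at 142.7 CPM and the lowest CLs sample at 147.3. The means were 133 ± 10.97 and 152.5 ± 5.00 CPM (SD, n = 3 each), and the log2 fold change was 0.20 (standard error 0.13, interval -0.08 to 0.48), or 0.22 without CLs-1. ANXA7 and ANXA11, the pair with the nearest proteins, thus lay on opposite sides of 0.

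**Figure D1:**
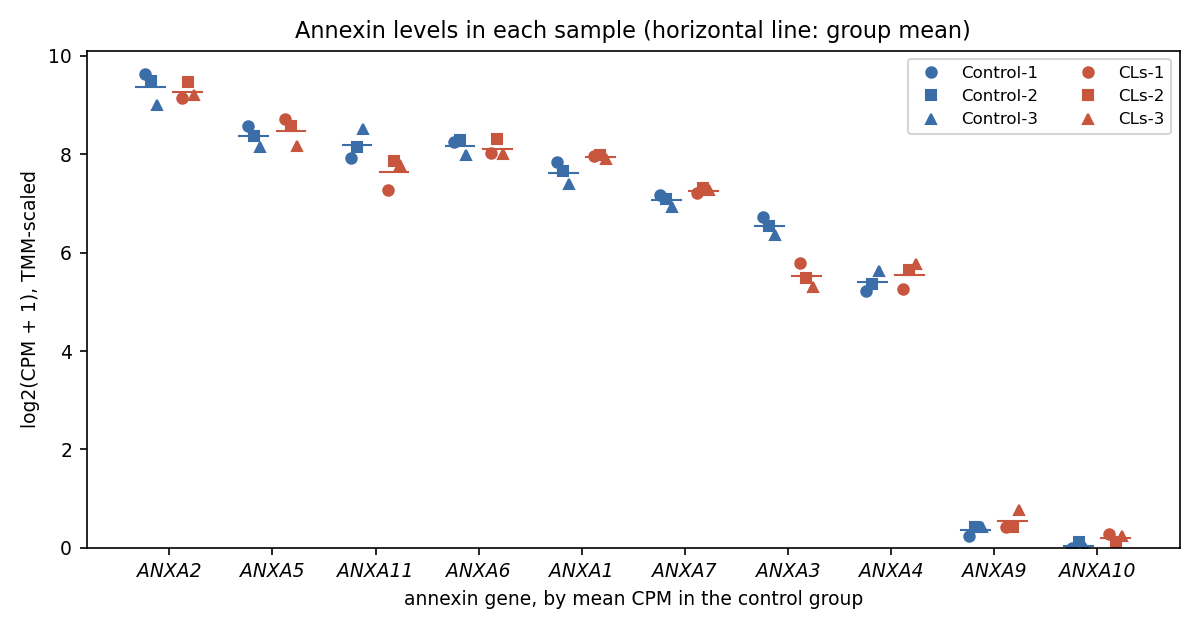
Level of each annexin in each sample as log2(CPM + 1), with genes ordered by their mean in the control group, control samples in blue, CLs samples in red and a horizontal line at each group mean. ANXA3 and ANXA11 have all CLs samples below all control samples, ANXA1 and ANXA7 have them above, and ANXA9 and ANXA10 sit near 0.

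The 4 other tested members overlapped between the groups. ANXA2, which joins S100A10 in a complex at the plasma membrane, had 9071, 8306 and 5992 counts in the control samples and 8138, 8159 and 6740 in the CLs samples. The level was 672.9 ± 142.2 CPM against 619.7 ± 75.3 CPM (SD, n = 3 each), and the log2 fold change was -0.12 (standard error 0.18, interval -0.51 to 0.27). Its direction rested on a single library, since without Control-1 it was 0.01, and without CLs-1 it was -0.05. ANXA5, the annexin used as a probe for exposed phosphatidylserine, had 4358, 3844 and 3295 counts in the control samples and 6084, 4370 and 3259 in the CLs samples. Its log2 fold change of 0.13 (standard error 0.17) came down to 0.0026 without CLs-1, which was its highest sample.

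ANXA6, an organiser of membrane and cholesterol traffic, had 3507, 3615 and 2932 counts in the control samples and 3725, 3647 and 2932 in the CLs samples. The groups lay on top of each other, at 289.4 and 276.7 CPM. The log2 fold change was -0.06 (standard error 0.15, interval -0.38 to 0.25) and -0.02 without CLs-1. ANXA4, found below the membranes of epithelial cells, had 416, 463 and 568 counts in the control samples and 540, 566 and 607 in the CLs samples. Its log2 fold change was 0.16 (standard error 0.17, interval -0.22 to 0.54). It was 0.29 without CLs-1 and 0.05 without CLs-3. The intervals of these 4 members do not exclude changes of the size seen in ANXA7.

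ANXA9, an annexin that lacks the usual calcium sites, was counted 2, 4 and 4 times in the control samples and 5, 4 and 8 times in the CLs samples. ANXA10, best known from the stomach, was counted 0, 1 and 0 times in the control samples and 3, 1 and 2 times in the CLs samples. ANXA10 was thus at or under the floor of 3 reads in every sample, and no fold is given for it. A difference in either gene was not detectable at this depth. ANXA13, an annexin of the intestine outside the set, had 1 read in CLs-1 and 0 in the others.

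Of the 8 tested members, 4 had a lower and 4 a higher level in the CLs group, with a median log2 fold change of 0.03 beside 0.01 for all 15047 tested genes. The median was -0.01 without CLs-1. Leaving ANXA3 aside, the members ran from -0.55 to 0.31, where the middle of all tested genes, from the 5th to the 95th percentile, ran from -0.46 to 0.44. All CLs samples lay below all control samples in 2 of the 8 members, where 6.18% of all tested genes did so, and above them in 2, where 5.34% did. A gene was called where edgeR's quasi-likelihood test, adjusted by Benjamini-Hochberg, gave p under 0.05 and the fold was above 1.5 or below 0.67. By this rule 0 of the 8 members were called, against 0.0864% of tested genes, and 2 of the 8 were at an unadjusted p-value under 0.05, as were 874 of the 15047 tested genes. ANXA3 was the 1 member called with RLE scaling, where 0.12% of genes were called, with upper quartile scaling (0.0997%), by DESeq2 (0.698%) and with no filter on low counts (0.672%). When each of the 6 samples was left out in turn, it was called in 0 fits, where 0.0195% to 0.0456% of genes were called. Since this contrast chose the set, nothing was read from these counts.

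**Figure D2:**
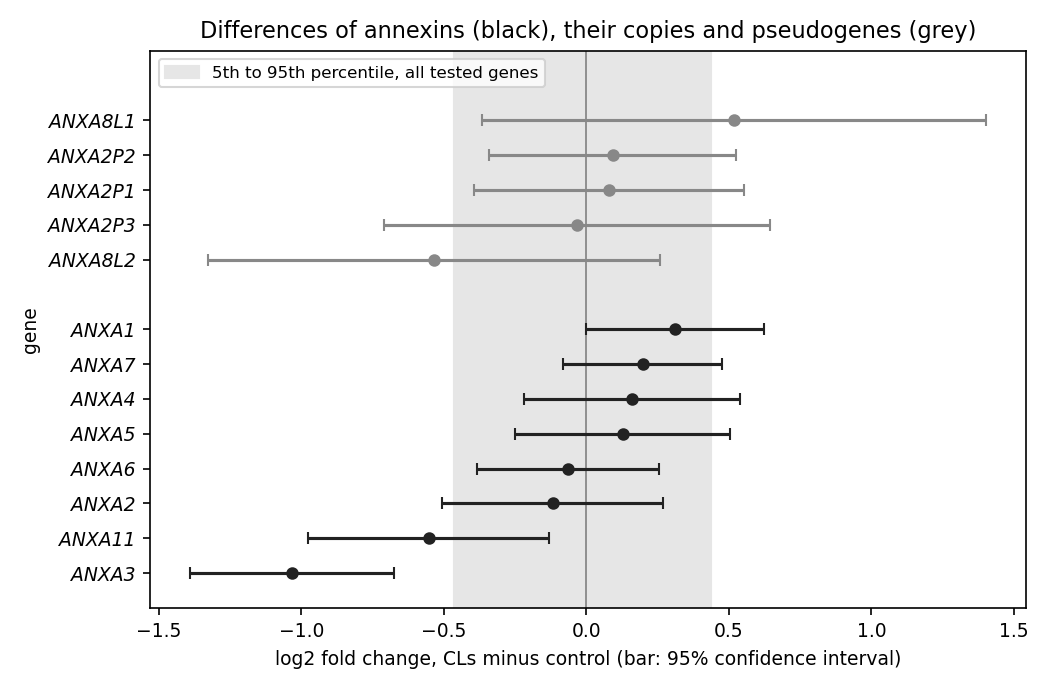
Log2 fold change of CLs against control with its 95% confidence interval for the 8 tested annexins (black) and for 5 copies and pseudogenes of the family (grey), over a band that spans the 5th to 95th percentile of all tested genes. ANXA3 at -1.03 and ANXA11 at -0.55 lie left of the band, and the other members lie inside it.

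The summed level of the family overlapped between the groups, while the shares of ANXA3, ANXA1 and ANXA7 in it did not. The CPM of the members summed to 2227, 2110 and 1832 in the control samples and to 1883, 2133 and 1838 in the CLs samples. ANXA2 made up the most of it, 32.5% ± 3.93 in the control group and 31.7% ± 1.64 in the CLs group (SD, n = 3 each). ANXA3 made up 4.73%, 4.37% and 4.46% in the control samples and 2.88%, 2.05% and 2.09% in the CLs samples, or 4.52% ± 0.187 and 2.34% ± 0.468. The share of ANXA1 was 9.13% to 10.3% in the control samples and 11.8% to 13.1% in the CLs samples. For ANXA7 it was 6.41% to 6.61% and 7.37% to 8.32%. The ratio of ANXA1 to ANXA3, which does not depend on the scaling between samples, was 2.17, 2.17 and 2.05 in the control samples and 4.56, 5.75 and 6.26 in the CLs samples. That the groups lie apart in this ratio and in these shares follows from the gene values given above and is no further evidence.

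Levels were compared between genes only after division by the length of the merged exons, as CPM per kb. In the control group ANXA2 stood first at 356.8 ± 75.4 CPM per kb, followed by ANXA5 at 187.8 ± 27.2, and their samples did not overlap. ANXA6 at 107.1 ± 12.3 and ANXA1 at 83.6 ± 12.9 came next and overlapped. ANXA7 at 54.2 ± 4.47 and ANXA3 at 51.8 ± 6.62 differed by less than their spread, and ANXA3 overlapped ANXA11, at 41.0 ± 8.64 (SD, n = 3 for each). ANXA4 was lower, at 14.9 ± 2.30, and apart from both its neighbours, and ANXA9 and ANXA10 were at 0.157 and 0.0203 CPM per kb. In the CLs group ANXA1 stood above ANXA6, at 103.7 ± 2.51 against 102.4 ± 12.4 CPM per kb, and ANXA11 above ANXA3, at 27.9 ± 5.88 against 25.3 ± 4.48. Both of these pairs overlapped. With the length of the longest coding transcript instead, a choice made after seeing the data, ANXA3 moved from place 6 to place 5 in the control group.

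The level of ANXA2 carries a doubt of its own, because 3 pseudogenes derived from its RNA are listed with reads. ANXA2P2 was counted 5132, 5083 and 3129 times in the control samples and 5663, 5493 and 4133 times in the CLs samples. ANXA2P1 had between 115 and 216 reads and ANXA2P3 between 27 and 51. A stretch of 90 coding bases of ANXA2 (bases 373 to 462 of the coding sequence, within coding exons) is shown with the matching stretches to make plain how little sets them apart, with bases that differ from ANXA2 in capitals.
ANXA2: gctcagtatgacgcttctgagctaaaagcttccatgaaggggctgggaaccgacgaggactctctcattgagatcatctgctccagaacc
ANXA2P1: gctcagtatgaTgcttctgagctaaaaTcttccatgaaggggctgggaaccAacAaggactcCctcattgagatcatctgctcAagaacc
ANXA2P2: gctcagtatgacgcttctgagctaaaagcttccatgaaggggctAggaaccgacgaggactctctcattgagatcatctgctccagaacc
ANXA2P3: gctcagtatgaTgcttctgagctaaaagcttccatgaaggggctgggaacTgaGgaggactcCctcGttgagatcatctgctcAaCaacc
ANXA2P2 differs from ANXA2 at 1 base of this stretch, ANXA2P1 at 6 and ANXA2P3 at 7. Over all aligned coding bases, ANXA2P2 was 98.4% identical to ANXA2 (16 mismatches in 1017 bases), ANXA2P1 93.8% and ANXA2P3 92.3%. Of all windows of 50 bases in the ANXA2 transcript, 41.2% occur letter for letter in ANXA2P2, and of windows of 100 bases 21.3%. The other 9 members share 0 such windows with any other annexin gene compared. Matches to genes outside the family, and matches that are not letter for letter, were not examined.

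How reads that match several places were assigned is not given in the sources used here, so the split between ANXA2 and its pseudogenes is uncertain. The pseudogenes took 37.2%, 39.1% and 35.3% of the reads of the 4 genes in the control samples, with 95% Wilson intervals of 36.4% to 38.0%, 38.2% to 39.9% and 34.3% to 36.3%. In the CLs samples they took 42.1%, 41.2% and 39.2%, with intervals of 41.3% to 42.9%, 40.4% to 42.1% and 38.3% to 40.1%. All CLs samples lay above all control samples, but the intervals of Control-2 and CLs-3 overlap. The intervals cover counting error only. When the reads of ANXA2 and its pseudogenes were summed, the log2 fold change was -0.04 (standard error 0.19, interval -0.45 to 0.37), against -0.12 for ANXA2 alone. ANXA8 and its copies pose the same problem, since 81.7% of the 50-base windows of ANXA8 occur in ANXA8L1. Summed over ANXA8, ANXA8L1 and ANXA8L2, the counts were 122, 77 and 47 in the control samples and 67, 73 and 65 in the CLs samples, which overlap.

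**Figure D3:**
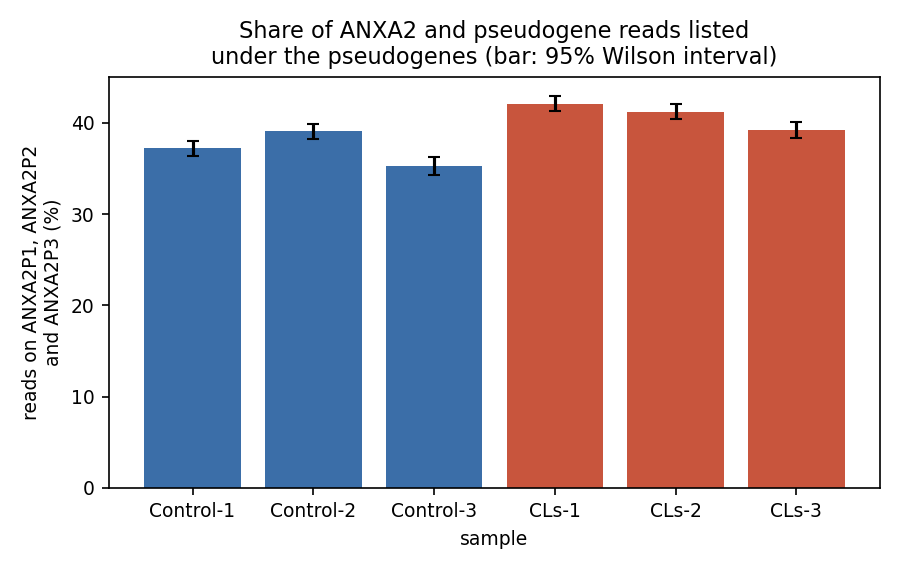
Share of the reads of ANXA2 and its 3 pseudogenes that is listed under the pseudogenes, in percent, per sample, with 95% Wilson intervals as bars. The control samples lie between 35.3% and 39.1% and the CLs samples between 39.2% and 42.1%.

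Annexins act with calcium-binding partners of the EF-hand families, and 16 such genes were examined. Of these, 10 were tested and 0 were called by edgeR's quasi-likelihood test, 0 by DESeq2 and 0 under any other setting. Over all genes tested, edgeR called 0.0864% and DESeq2 0.698%, so 0 called in a list this short is no result about its genes. In edgeR's test 0 of the 10 were at an unadjusted p-value under 0.05, beside 874 of all 15047 tested genes. The fitted level in the CLs group was higher in 8 of the 10 and lower in 2, where 7215 of all 15047 tested genes were lower. The median log2 fold change of the 10 was 0.12, beside 0.01 for all tested genes. S100A10, the partner of ANXA2, was at 149.0 ± 13.2 CPM in the control group and 158.2 ± 19.9 CPM in the CLs group (SD, n = 3 each), a log2 fold change of 0.09 (standard error 0.14). S100A11, the partner of ANXA1, was at 261.4 ± 25.4 and 277.9 ± 39.2 CPM, also 0.09 (standard error 0.15). S100A6, which binds ANXA11 among others, was at 0.11 on the log2 scale (standard error 0.19). PDCD6, the other sensor that binds ANXA11, was at 0.14 (standard error 0.16), and SRI, the sorcin that binds ANXA7, at -0.28 (standard error 0.19). The groups overlapped in all 5 of these genes, and the p-values from edgeR, after Benjamini-Hochberg adjustment, lay between 0.956 and 0.999.

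Outside the EF-hand families, 8 receptors and ligands of annexins were examined. The formyl peptide receptors FPR1, FPR2 and FPR3, which bind ANXA1, had 0 reads in every sample. The plasminogen system docks on ANXA2 at the cell surface, and of its genes PLAUR, the urokinase receptor, is given here. PLAUR had 514, 521 and 797 counts in the control samples and 598, 612 and 838 in the CLs samples, which overlap on the CPM scale. Of the 8 genes 3 were tested, and 0 were called by edgeR's quasi-likelihood test or by DESeq2, against 0.0864% and 0.698% of the genes each tool tested. In edgeR's test 0 were at an unadjusted p-value under 0.05, beside 874 of all 15047 tested genes.

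Plasma membrane repair, the process in which annexins seal wounds, was followed through 23 genes. Of these 20 were tested and 0 were called by edgeR's quasi-likelihood test or by DESeq2, against 0.0864% and 0.698% of the genes each tool tested. In edgeR's test 2 of the 20 were at an unadjusted p-value under 0.05, beside 874 of all 15047 tested genes. The median log2 fold change of the 20 was 0.05. AHNAK, a giant scaffold that ANXA2 and S100A10 bring to the membrane, was at 595.4, 718.1 and 767.3 CPM in the control samples and 510.8, 462.4 and 483.2 CPM in the CLs samples, which did not overlap. Its log2 fold change of -0.51 (standard error 0.14) missed the threshold in edgeR's quasi-likelihood test (Benjamini-Hochberg adjusted p = 0.327). MYOF, a ferlin of membrane fusion, was at 478.7 ± 40.03 and 395.4 ± 26.9 CPM (SD, n = 3 each) with a log2 fold change of -0.28, and TSG101, of the ESCRT machinery, at 39.97 ± 1.21 and 46.4 ± 3.52 CPM with 0.21. Their groups did not overlap either, and neither gene passed the test. Among the 20 genes this makes 2 with all CLs samples lower and 1 with all higher, where 6.18% and 5.34% of all tested genes did so.

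Phosphatidylserine reaches the outer face of the membrane through scramblases and is brought back by flippases, and 15 genes of these were examined. Of the 11 tested, 9 had a lower and 2 a higher fitted level in the CLs group, with a median log2 fold change of -0.15. Among all 15047 tested genes, 7215 had a lower fitted level and the median was 0.01. Of the 11 genes 0 were called by edgeR's quasi-likelihood test and by DESeq2, against 0.0864% and 0.698% of the genes each tool tested. In edgeR's test 0 were at an unadjusted p-value under 0.05, beside 874 of all 15047 tested genes. The groups overlapped in all 11, where 6.18% of all tested genes had all CLs samples lower and 5.34% had them all higher. The copines, another family of calcium-dependent phospholipid binders, had 5 of 9 genes tested, a median of -0.03 and 0 called by either tool. In edgeR's test 0 of the 5 were at an unadjusted p-value under 0.05. The shares over all tested genes given above hold here too. CPNE1 was the 1 copine whose groups did not overlap, at 129.7 ± 6.72 CPM in the control group and 112.6 ± 8.11 CPM in the CLs group (SD, n = 3 each). All its CLs samples were lower, as in 6.18% of all tested genes.

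**Figure D4:**
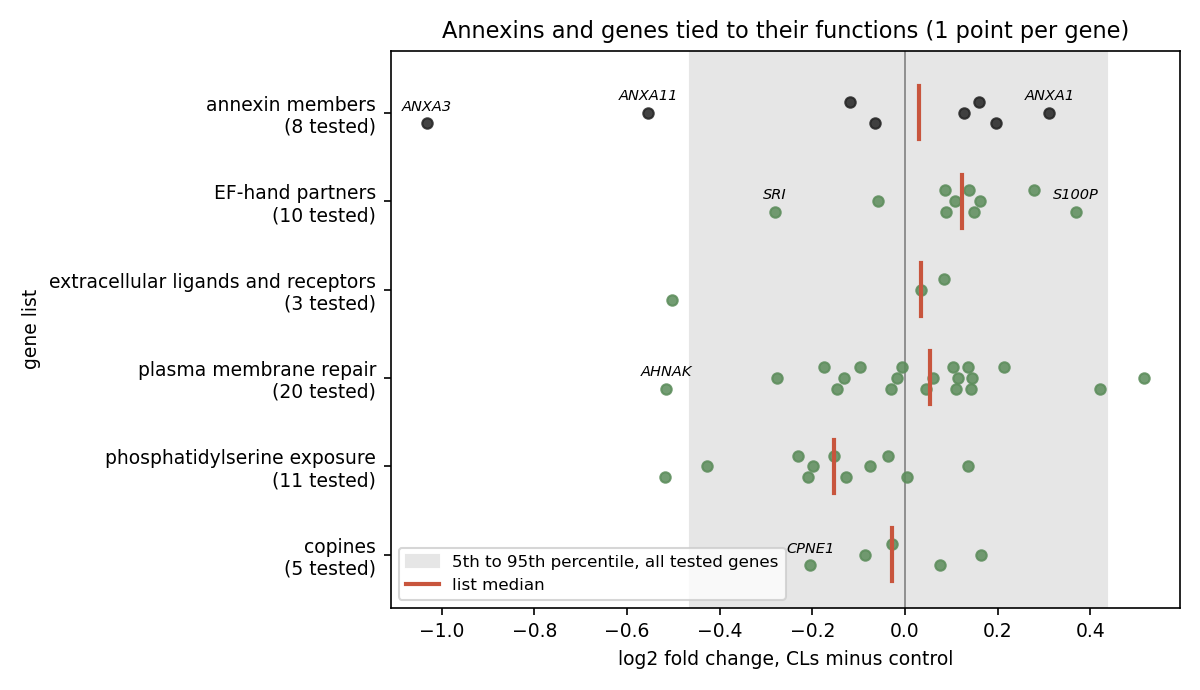
Log2 fold change of CLs against control for each tested gene (points) of the annexins and of 5 lists tied to their function, with list medians in red and the 5th to 95th percentile of all tested genes as a grey band. The list medians lie between -0.15 and 0.12, and ANXA3 is the gene farthest from 0.

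The genes whose pattern was nearest to that of ANXA3 were sought by the root mean square distance between centred log2(CPM + 1) values over the 6 samples, among 9895 genes with a mean above 10 CPM. They were NEDD9, a scaffold of adhesion signalling, at a distance of 0.0965, SGK223, a pseudokinase scaffold, at 0.147, DHCR7, the last enzyme of cholesterol synthesis, at 0.154, SAMD4A, an RNA-binding repressor of translation, at 0.164, and PKP2, a desmosome plaque protein, at 0.173. The same 5 genes came first with library size scaling. NEDD9 was at 110.8, 93.1 and 100.6 CPM in the control samples and at 55.3, 45.1 and 40.7 CPM in the CLs samples. Like ANXA3 it had its highest value in Control-1 and, within the CLs group, in CLs-1. DHCR7 was at 198.2, 195.8 and 158.7 CPM in the control samples and 109.9, 101.5 and 99.97 CPM in the CLs samples. In all 5 genes the CLs samples lay below the control samples, which follows from how they were chosen.

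**Figure D5:**
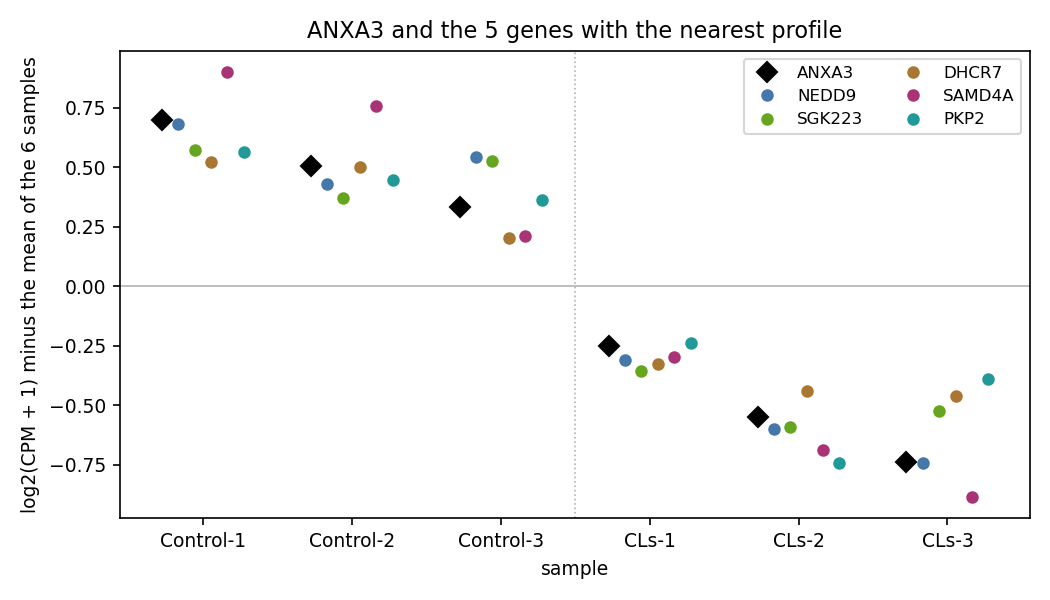
Log2(CPM + 1) of ANXA3 (black diamonds) and of the 5 genes nearest to it (circles) in each sample, after subtraction of each gene's mean over the 6 samples. All 6 genes are above 0 in Control-1 to Control-3 and below 0 in CLs-1 to CLs-3.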

How the data were processed

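RNA-seq was measured in 3 control and 3 CLs samples, grouped by their titles. The authors mapped reads with MapSplice and deposited the counts used here, raw whole numbers of reads for 40205 gene symbols. The submitters' processing notes name HTSeq 0.6.1, hg19 and GRCh37, with no role. Strand and the handling of reads with several matches are not given in the sources used here. Depth was 11418527 to 13998946 counts per sample, and floors cover counting error only.

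Counts were fitted with edgeR 4.0.16 in R 4.3.3 (filterByExpr, TMM, quasi-likelihood test on condition, Benjamini-Hochberg adjustment over 15047 genes). Standard errors were derived from the F statistic. The study's own test, EBSeq, was not run. The study lists ANXA3 among its differentially expressed genes, under positive regulation of angiogenesis. The fit used here, which called 13 of 15047 genes, did not call ANXA3, whereas some of the alternatives did. Called genes had an adjusted p-value under 0.05 and a fold above 1.5 or below 0.67. An exact two-sided permutation test of 3 against 3 samples cannot give less than p = 0.10, and p-values measure only the spread between these samples, which may be technical. CPM are TMM-scaled. Lengths and sequences came from GENCODE release 29, a newer build than that of the counts, so no coordinates are given. Scripts were tested on simulated data.

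Alternatives were RLE, upper quartile and library size scaling, DESeq2 1.42.0, no filter, a stricter filter (CPM above 1 in 3 samples), no fold criterion, the replicate number as a block, each sample left out, and ANXA2 summed with its pseudogenes. The members and lists were chosen with earlier results of these data known. Named genes were all 10 members, the other annexin genes with reads, S100A10, S100A11, S100A6, SRI and PDCD6, in each partner list the called genes and up to 4 with the largest change among those whose groups do not overlap, and the 5 genes nearest to ANXA3. Receptor genes named beside these were chosen after their values were seen.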

Additional observations from a re-analysis of the deposited data

How the results depend on the processing

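ANXA3 was the 1 annexin called with RLE scaling, upper quartile scaling, DESeq2, no filter and the replicate block, against 0 with TMM scaling, library size scaling, the stricter filter, no fold criterion and each sample left out. The cause of this split between settings was not tested. The log2 fold change of ANXA3 was -1.03 with RLE scaling and with DESeq2, which called it. It was also -1.03 with TMM scaling and with the stricter filter, which did not call it. Since this contrast chose the set, nothing was read from these calls. Its log2 fold change ranged from -1.18 to -0.92 when each sample was left out. With any 1 sample left out, 3 or 4 of the tested members were lower and their median ranged from -0.06 to 0.06. Over all genes, 13 (0.0864%) were called in the reported fit, 18 (0.12%) with RLE scaling and 15 (0.0997%) with upper quartile scaling. Library size scaling gave 8 (0.0532%), DESeq2 104 (0.698%) and no filter 171 (0.672%). With a sample left out, 3 to 7 genes (0.0195% to 0.0456%) were called. ANXA2 changed direction, to 0.01, without Control-1. No partner gene was called under any setting.

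The replicate numbers were not taken as pairs, because the correlations of deviations between same-numbered samples were 0.0998, 0.122 and 0.333. Each sample correlated best with its own number, which is a hint from the data and not from the design. With the replicate block, 68 genes (0.452%) were called, and 1 annexin, ANXA3. Depth limits ANXA9 and ANXA10, which had at most 8 and 3 reads in a sample.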
